A study of Arabidopsis thaliana with 36 samples.

Results

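The 10 genes described here are nitrate transporters of Arabidopsis thaliana that were chosen by locus from the 27444 genes of the deposited table. They comprise 5 genes of the NRT1 family (NRT1.1, AT1G12110; NRT1.2, AT1G69850; NRT1.5, AT1G32450; NRT1.7, AT1G69870; NRT1.8, AT4G21680), 4 of the NRT2 family (NRT2.1, AT1G08090; NRT2.2, AT1G08100; NRT2.4, AT5G60770; NRT2.5, AT1G12940) and NRT3.1 (AT5G50200). The rule that chose them uses loci and no measured value, although it was written with earlier results of these data known, and each is followed through all 36 poly(A) RNA-seq libraries.

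Nitrate is the main nitrogen source of plants in aerated soil, and nitrate transporters move it from the soil solution into root cells, from root cells into the xylem, and between leaves. The NRT1 proteins are mostly low-affinity transporters, with NRT1.1 also acting at high affinity and as a nitrate sensor, while the NRT2 proteins are high-affinity transporters of the plasma membrane that work with NRT3.1, a small partner protein without which NRT2.1 does not take up nitrate. Nitrate and phosphate (Pi) supply are linked in Arabidopsis roots, where nitrate signals adjust the Pi starvation response and Pi starvation changes the transcription of nitrate transporter genes.

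The plants were ppsr1 T-DNA knockout plants (KO), plants of a single line that overexpresses AtPPSR1 (OE), and Col-0 wild type (WT). All were grown hydroponically at 200 µM Pi for 4 weeks and then kept for 24 h at 0 µM or at 200 µM Pi, and roots and mature rosette leaves were taken separately. The resulting 12 groups had 3 libraries each, which the labels call independent biological replicates. The sources used here do not give the promoter of the overexpression construct, a second OE line was not analysed here, and the PPSR1 gene itself was not analysed here, so the labels KO and OE were not checked against its level. The growth solution contained nitrate throughout, and nitrate supply was not varied.

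Values behave as FPKM, reads scaled to coding length and library size, and on that reading levels are set beside each other between genes. Whether reads outside coding sequence were counted is unknown, and coding length differs, at 633 bases for NRT3.1 and 1593 for NRT2.1. Depth was between 2090000 and 11860000 reads in root and between 6720000 and 13290000 in leaf. The 4 leaf marker genes summed to 575 to 3602 FPKM in root libraries and to 59606 to 103910 FPKM in leaf libraries, and the 10 root marker genes summed to 6068 to 10092 FPKM in root and to 13.5 to 52.6 FPKM in leaf. The 3 vascular marker genes summed to 56.6 to 121 FPKM in root and to 132 to 219 FPKM in leaf. In 4 libraries, WT root 200 µM replicate 2, WT leaf 200 µM replicate 2, OE leaf 0 µM replicate 1 and WT leaf 0 µM replicate 1, genes with more than 4000 coding bases were low against the organ's other libraries, by 1.13, 0.99, 0.86 and 0.76 on the log2 scale as a median. Such genes were high in some leaf libraries at 0 µM, by 0.53 and 0.89 in WT replicates 2 and 3. They were also high there by 0.60 in OE replicate 2 and by 0.52 in KO replicate 2. The highest leaf library at 200 µM was OE replicate 2, at 0.05. The fit without the libraries low in long genes kept these, and their part in the leaf Pi responses was not tested. KO leaf 200 µM replicate 1 had 9488 genes at 0, against at most 8551 in any other leaf library. A gene passed the test at an adjusted p under 0.05 by limma on log2(FPKM + 1) with Benjamini-Hochberg adjustment over all genes of a comparison, and changes are differences on that scale, which understates the change of genes near 0.

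The levels of the members differed between root and leaf. In root, the uptake transporter NRT2.1 and its partner NRT3.1 were the most abundant members, and their ranges over the 18 root libraries overlapped, at 608 to 1753 FPKM for NRT2.1 (median 1198) and 802 to 1546 FPKM for NRT3.1 (median 1048). NRT2.1 made up 31.7% to 47.8% and NRT3.1 31.1% to 49.0% of the summed FPKM of the 10 genes in a root library. The next were NRT1.5, which loads nitrate into the xylem, at 164 to 407 FPKM (median 292), and NRT1.1, the dual-affinity transporter and sensor, at 117 to 375 FPKM (median 240), whose ranges also overlapped. NRT1.2, a constitutive low-affinity transporter of the root, lay below both at 52.2 to 110.3 FPKM.

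The other 5 members were low in root. NRT2.2, the neighbour and close copy of NRT2.1, had 3.26 to 11.55 FPKM, and NRT1.7, which loads nitrate into leaf phloem, had 1.92 to 5.59 FPKM. NRT1.8, which takes nitrate back out of the xylem sap, had 0.65 to 4.6 FPKM, NRT2.4, a high-affinity transporter known from nitrogen-starved roots and shoots, 0.12 to 4.09 FPKM, and NRT2.5, a high-affinity transporter known from plants long starved of nitrogen, 0 to 6.94 FPKM. Neighbours in this order overlapped.

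In leaf, NRT1.7 led at 67.0 to 174.6 FPKM (median 113), followed by NRT1.1 at 26.7 to 94.8 FPKM (median 44.5), NRT3.1 at 15.7 to 47.3 FPKM, NRT1.2 at 11.8 to 46.3 FPKM, NRT1.5 at 2.56 to 19.85 FPKM and NRT2.1 at 0.81 to 22.47 FPKM, and each of these ranges overlapped that of its neighbour. The other 4 members, NRT1.8, NRT2.2, NRT2.4 and NRT2.5, stayed below a mean of 1 FPKM in leaf and were not tested there. NRT2.2 and NRT2.4 were each listed at 0 in 17 of the 18 leaf libraries, and the exception was WT leaf 200 µM replicate 2 in both cases, at 0.5 and 0.2 FPKM or 10 and 4 reads.

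**Figure D1:**
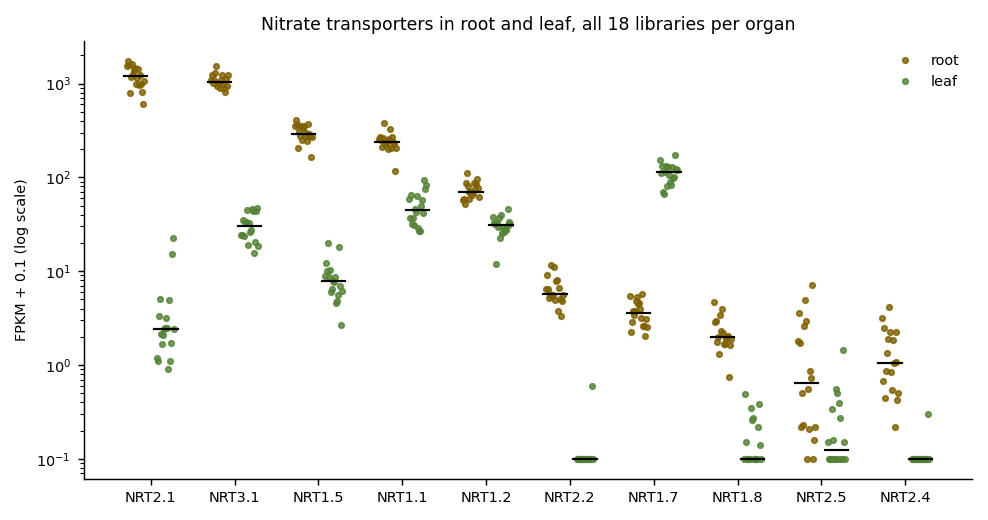
Level of each member in the 18 root libraries (brown, left of each pair) and the 18 leaf libraries (green), as FPKM + 0.1 on a log axis, with black bars at the medians. NRT1.7 is the member whose root points, at 1.92 to 5.59 FPKM, lie far below its leaf points, at 67.0 to 174.6 FPKM.

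Between root and leaf of WT plants, 7 of the 8 members that could be tested were higher in root and 1, NRT1.7, was lower in root, at 0 µM and at 200 µM Pi alike. The background is high, since 73.4% of all genes tested passed at 0 µM and 69.7% at 200 µM, so the count says little about the members, and the sizes say more. NRT2.1 was 8.41 log2 units higher in root at 0 µM (SE 0.46, adjusted p = 3.83e-16, limma) and 6.22 at 200 µM (SE 0.46, adjusted p = 5.32e-13). NRT3.1 was higher in root by 5.15 and 4.98 and NRT1.5 by 5.06 and 5.32 at 0 and 200 µM.

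Among the members with at least 1 FPKM in every WT leaf library, NRT1.1 and NRT1.2 differed least. NRT1.1 was 2.26 log2 units higher in root at 0 µM and 1.05 at 200 µM, where its WT root libraries had 227, 117 and 205 FPKM and its WT leaf libraries 94.8, 75.4 and 83.6 FPKM. That last difference was 0.52 with an adjusted p of 0.0644 when libraries were rescaled by median-of-ratios. This rescaling also moved the median over all genes, root minus leaf, to 0.16 at 0 µM and 0.21 at 200 µM, against 0.79 and 0.67 with FPKM as deposited, and with it 6449 genes were higher and 4961 lower in root at 0 µM and 7040 and 5040 at 200 µM, against 10846 and 3343 and against 9906 and 3569 as deposited. NRT1.7 was 4.66 log2 units lower in root at 0 µM (SE 0.26, adjusted p = 5.05e-16, limma) and 5.33 lower at 200 µM (SE 0.26, adjusted p = 2.19e-17). NRT1.8 and NRT2.2 were called higher in root at both levels, but NRT1.8 was listed at 0 in 3 and NRT2.2 in 5 of the 6 WT leaf libraries, so that the fitted change depends on the pseudocount and no fold is given. The leaf markers were also read in root libraries. Whether leaf RNA was present there, and whether it held part of the root signal of NRT1.7, was not tested.

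In root, NRT2.5 was higher after 24 h without Pi, a change that passed the test averaged over genotypes. KO roots had 1.72, 3.45 and 1.63 FPKM at 0 µM, against 0.12, 0.40 and 0.13 FPKM at 200 µM. OE roots had 2.49, 4.84 and 2.88 FPKM at 0 µM, against 0, 0.46 and 0.11 FPKM at 200 µM. WT roots had 0.76, 0.62 and 6.94 FPKM at 0 µM, against 0, 0.06 and 0.12 FPKM at 200 µM. All 9 root libraries without Pi lay above all 9 with Pi, and the 1 library far above the rest was WT root 0 µM replicate 3.

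These levels rest on few reads. Summed over 3 libraries, KO roots had 43 reads of NRT2.5 at 0 µM and 6 at 200 µM, OE roots 90 and 6, and WT roots 76 and 3, of which 61 came from WT root 0 µM replicate 3. Per library read, the ratio of 0 to 200 µM was 8.98 in KO (95% interval 3.81 to 25.8), 24.0 in OE (10.6 to 67.2) and 39.0 in WT (12.8 to 193), where the exact binomial intervals cover counting error only.

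Within single genotypes, no Pi response of NRT2.5 passed the test over all genes. The change was 1.39 in KO (SE 0.45, adjusted p = 0.0994, limma), 1.87 in OE (SE 0.45, adjusted p = 0.156) and 1.42 in WT (SE 0.45, adjusted p = 0.101). In the authors' deposited table the same responses had adjusted p-values of 0.00908, 2.82e-05 and 0.00249. Without WT root 0 µM replicate 3, which widens the spread that the 6 root groups share, NRT2.5 passed in KO (adjusted p = 0.0177, limma) and in OE (adjusted p = 0.0109), while the WT change came to 0.67 in place of 1.42.

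Averaged over the 3 genotypes, a comparison added after these values were seen, NRT2.5 was 1.56 log2 units higher at 0 µM (SE 0.26, adjusted p = 0.00104, limma), with means of 2.81 and 0.156 FPKM over the 9 libraries at 0 µM and the 9 at 200 µM. It met the filter, a mean of 1 FPKM over the root libraries, only through the libraries at 0 µM. NRT2.5 passed under all 25 alternatives of processing or left-out libraries, no filter among them, with adjusted p-values of 0.000267 to 0.00349. NRT2.5 shares 29 of its 1479 words of 31 coding bases with AT4G14358, so shared reads are possible, and AT4G14358 was listed at 0 in 17 of the 18 root libraries.

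NRT1.8 moved the same way by less. KO roots had 4.6, 2.77 and 2.85 FPKM at 0 µM, against 1.67, 1.87 and 1.21 FPKM at 200 µM. OE roots had 3.29, 2.23 and 3.82 FPKM at 0 µM, against 2.07, 1.57 and 1.58 FPKM at 200 µM, and WT roots had 1.81, 1.89 and 1.94 FPKM at 0 µM, against 0.65, 1.54 and 1.79 FPKM at 200 µM. Within each genotype the Pi levels did not overlap, although in WT the gap between them was 0.02 FPKM, the difference of 1.81 and 1.79.

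The averaged change of NRT1.8 was 0.56 (SE 0.15, adjusted p = 0.0289, limma), and no single genotype passed, with 0.75 in KO (adjusted p = 0.12), 0.57 in OE (adjusted p = 0.815) and 0.34 in WT (adjusted p = 0.486). The averaged call was lost under median-of-ratios scaling (0.49, adjusted p = 0.051) and without any 1 of 7 single libraries (KO root 0 µM replicate 1, KO root 200 µM replicate 3, OE root 0 µM replicate 3, OE root 200 µM replicates 2 and 3, and WT root 0 µM replicates 2 and 3), at adjusted p-values of 0.0544 to 0.0595.

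In the averaged root response, a comparison added after values were seen, 2 of 10 members passed, NRT2.5 and NRT1.8, both higher at 0 µM. Beside them 8.67% of all 19166 genes tested passed, of which 930 were higher and 732 lower (440 higher and 1055 lower under median-of-ratios scaling). NRT2.5 met the filter only through the libraries at 0 µM, so neither this count nor a shared direction can rest on it. The median change of the 10 members was 0.23, against 0.09 over all genes.

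**Figure D2:**
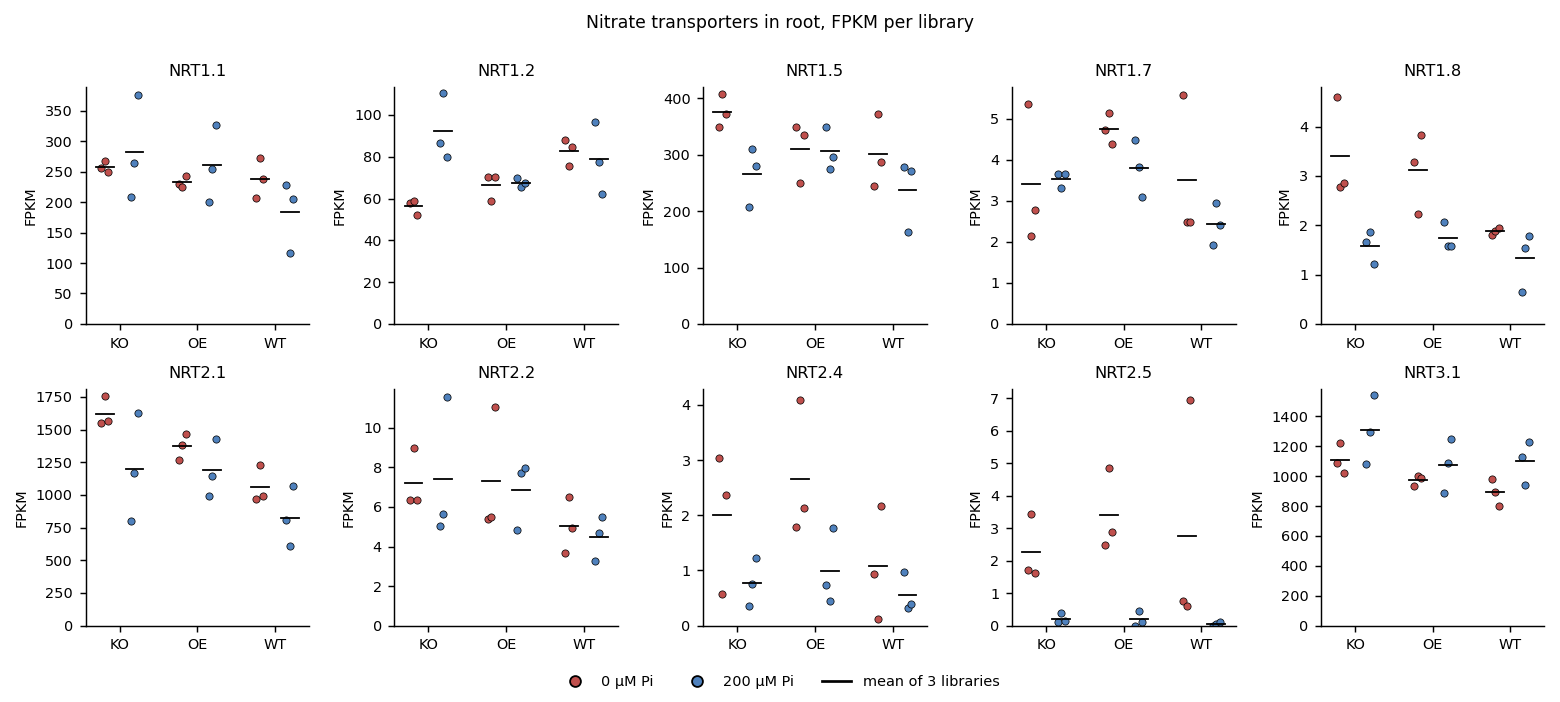
FPKM of the 10 members in each root library, by genotype, with 0 µM Pi (red) left of 200 µM Pi (blue) and black bars at the means of 3 libraries. NRT2.5 and NRT1.8 lie higher at 0 µM in each genotype, and NRT1.2 in KO lies lower at 0 µM (52.2 to 58.9 FPKM) than at 200 µM (80.1 to 110.3 FPKM).

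The most abundant members of the root, NRT2.1 and NRT3.1, had changes of opposite sign that did not pass. NRT2.1 had 1552, 1753 and 1563 FPKM in KO roots at 0 µM and 798, 1169 and 1625 at 200 µM, 1268, 1385 and 1463 in OE roots at 0 µM and 995, 1149 and 1428 at 200 µM, and 968, 1228 and 995 in WT roots at 0 µM and 807, 608 and 1067 at 200 µM. Its libraries overlapped between Pi levels in each genotype and no Pi response passed, with changes of 0.50 in KO (adjusted p = 0.26, limma), 0.22 in OE (adjusted p = 0.957) and 0.39 in WT (adjusted p = 0.373). The averaged change was 0.37 (SE 0.14, adjusted p = 0.101, limma), and it passed without KO root 200 µM replicate 3 (adjusted p = 0.0454) or WT root 200 µM replicate 3 (adjusted p = 0.0441).

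For the partner NRT3.1 the changes had the opposite sign, at -0.23 in KO, -0.13 in OE and -0.30 in WT, and none passed (adjusted p = 0.507, 0.967 and 0.362, limma). NRT3.1 had 1089, 1219 and 1018 FPKM in KO roots at 0 µM, against 1078, 1297 and 1546 at 200 µM. OE roots had 935, 1002 and 988 FPKM at 0 µM, against 885, 1087 and 1248 at 200 µM, and WT roots had 984, 892 and 802 FPKM at 0 µM, against 1130, 939 and 1227 at 200 µM. These overlapped in every genotype.

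The ratio of NRT2.1 to NRT3.1 within a library, which no scaling of libraries can move, separated the Pi levels in every genotype. The ratio was 1.43, 1.44 and 1.53 in KO roots at 0 µM, against 0.74, 0.90 and 1.05 at 200 µM. In OE roots it was 1.36, 1.38 and 1.48 at 0 µM, against 1.124, 1.056 and 1.145 at 200 µM, and in WT roots 0.98, 1.38 and 1.24 at 0 µM, against 0.71, 0.65 and 0.87 at 200 µM. On average over genotypes the ratio was 1.5-fold higher at 0 µM, 0.58 on the log2 scale, with 0.72 in KO, 0.34 in OE and 0.69 in WT.

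A two-sided exact permutation test of Pi labels within genotypes gave p = 0.00025 for the averaged difference, the smallest value that the 8000 arrangements allow, and the ratio was chosen after its values were seen. With single libraries left out, with 1 FPKM added to both levels, or without the library low in long genes, the difference lay between 0.54 and 0.63 and p reached at most 0.0005. Pi levels that do not overlap in any genotype put p at or next to its lowest value. These p-values therefore add nothing to the separation already seen. The deviation of long genes in these libraries, given beside the ratio because it differs between Pi levels, was -0.17 to 0.36 at 0 µM and -1.13 to 0.18 at 200 µM, and its part in the ratio was not tested. A ratio shows unequal change of the genes and not which of them changed. NRT2.1 shares 305 of its 1563 words of 31 coding bases with NRT2.2, and the treatment of such reads is unknown, but NRT2.2 was at most 11.55 FPKM in root beside at least 608 FPKM of NRT2.1. NRT2.2 itself is therefore uncertain, and its Pi responses did not pass, with changes of 0.03 in KO, 0.04 in OE and 0.14 in WT.

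**Figure D3:**
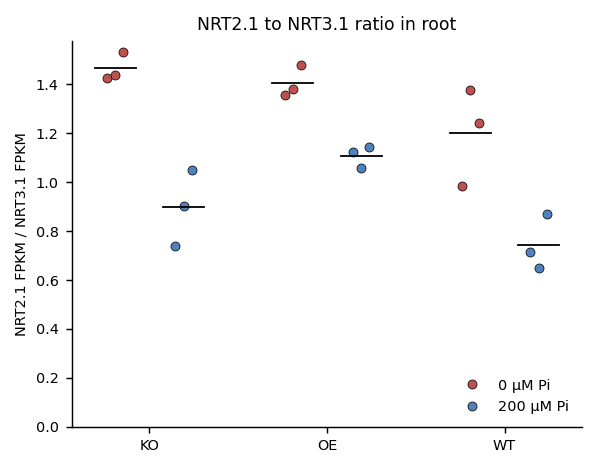
Ratio of NRT2.1 FPKM to NRT3.1 FPKM in each root library, by genotype, with 0 µM Pi (red) left of 200 µM Pi (blue) and black bars at the means of 3 libraries. In KO, OE and WT alike, every library at 0 µM lies above every library at 200 µM.

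NRT1.2 fell in KO roots without Pi. It had 57.7, 58.9 and 52.2 FPKM in KO roots at 0 µM, against 86.5, 110.3 and 80.1 FPKM at 200 µM, with no overlap. The change was -0.69 (SE 0.16, adjusted p = 0.0259, limma), and the authors' deposited table gives a ratio of 0.61 with an adjusted p of 0.00016. In OE roots NRT1.2 had 70.5, 59.0 and 70.2 FPKM at 0 µM and 69.9, 65.4 and 67.3 FPKM at 200 µM (change -0.02), and in WT roots 87.8, 75.5 and 84.7 FPKM at 0 µM and 96.6, 77.2 and 62.1 FPKM at 200 µM (change 0.09).

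The difference of the KO response of NRT1.2 from that of WT was -0.78 (SE 0.23, adjusted p = 0.31, limma), so the fall is not shown to be particular to KO. The KO call was lost in a fit of the KO root libraries alone (adjusted p = 0.051) and without KO root 0 µM replicate 1 or 3 or KO root 200 µM replicate 1 or 2 (adjusted p = 0.0565 to 0.127). KO root 0 µM replicates 1 and 2 are among the shallowest libraries, at 2730000 and 3290000 reads, and held 277 and 341 reads of NRT1.2.

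NRT1.2 was the 1 member of 10 that passed in the KO root response, beside 3.53% of all genes. In OE and WT roots 0 of 10 members passed by limma, beside 0.235% and 1.96% of all genes, with 3 and 1 members at an unadjusted p under 0.05, and voom on recovered reads called 1 more, NRT2.5 in WT (adjusted p = 0.0454). The xylem loader NRT1.5 had 349, 407 and 372 FPKM in KO roots at 0 µM, against 207, 309 and 279 at 200 µM, a difference without overlap that did not pass (0.52, adjusted p = 0.198, limma). In OE and WT roots NRT1.5 overlapped between Pi levels, with changes of 0.01 and 0.36.

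NRT1.1 showed no Pi response that passed in root, with changes of -0.09 in KO, -0.14 in OE and 0.43 in WT (adjusted p = 0.865, 0.972 and 0.328, limma). NRT2.4 had 0.58 to 3.04 FPKM in KO roots at 0 µM and 0.35 to 1.23 at 200 µM, 1.78 to 4.09 in OE roots at 0 µM and 0.44 to 1.77 at 200 µM, and 0.12 to 2.17 in WT roots at 0 µM and 0.32 to 0.97 at 200 µM. Its changes were 0.67, 0.89 and 0.31 in KO, OE and WT. Neither these nor the averaged change of 0.62 (adjusted p = 0.113, limma) passed. NRT2.4 averaged 0.78, 0.98 and 0.56 FPKM at 200 µM in KO, OE and WT roots. It thus met the filter only through the libraries at 0 µM, so the shared sign of its changes adds no support. NRT1.7 stayed between 1.92 and 5.59 FPKM in root, with changes of -0.10, 0.27 and 0.34 in KO, OE and WT, none of which passed.

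**Figure D4:**
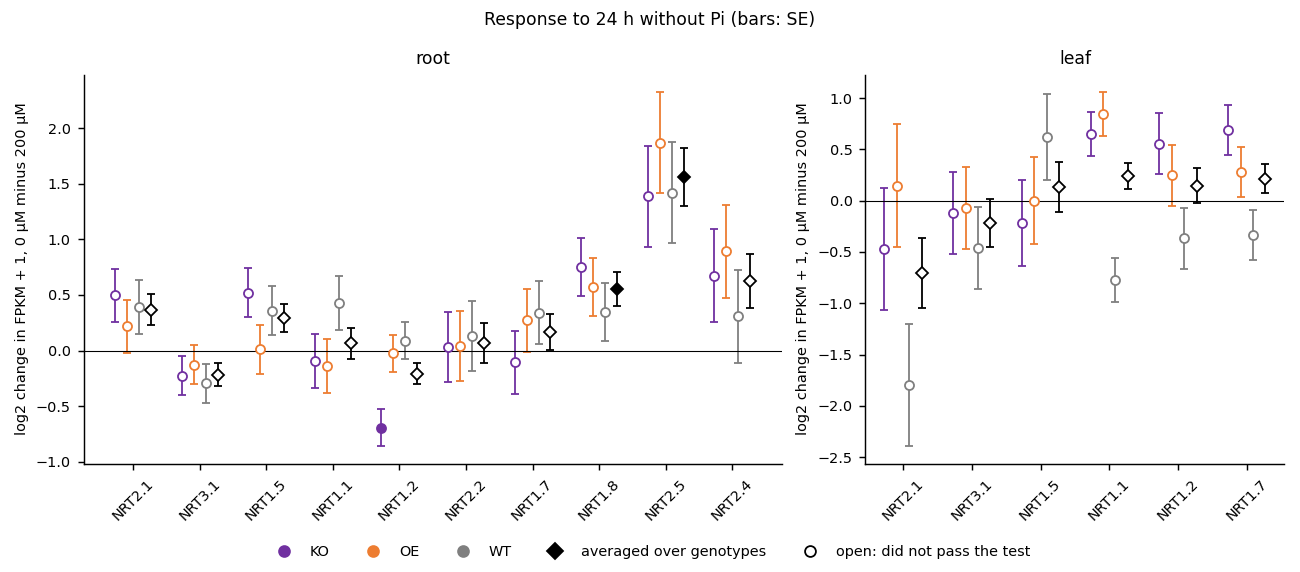
Change of each tested member at 0 µM against 200 µM Pi, on the log2(FPKM + 1) scale with standard errors, in root (left) and leaf (right) for KO, OE, WT and their average (diamonds), where filled symbols passed the test. Filled symbols are NRT1.2 in KO root and the root averages of NRT1.8 and NRT2.5.

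In leaf, NRT1.1 differed between genotypes at 200 µM Pi. It had 31.4, 36.6 and 30.6 FPKM in KO leaves and 28.7, 26.7 and 26.7 FPKM in OE leaves at 200 µM, against 94.8, 75.4 and 83.6 FPKM in WT leaves. The 6 libraries of the lines lay far below the 3 of WT. NRT1.1 was lower in KO by 1.34 log2 units (SE 0.21, adjusted p = 0.00579, limma), or 2.53-fold, and lower in OE by 1.59 (SE 0.21, adjusted p = 0.00126), or 3.0-fold. These comparisons share the 3 WT libraries.

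At 0 µM the libraries of the genotypes overlapped. NRT1.1 had 58.7, 36.4 and 65.4 FPKM in KO leaves, 45.9, 43.1 and 62.8 FPKM in OE leaves and 49.1, 56.6 and 42 FPKM in WT leaves at 0 µM. The differences from WT were 0.09 in KO and 0.03 in OE (SE 0.21 each, adjusted p = 1 each, limma).

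The response of NRT1.1 to 0 µM therefore had the opposite sign in the lines and in WT. It was 0.65 in KO (SE 0.21, adjusted p = 0.17, limma), with overlapping libraries, 0.84 in OE (adjusted p = 0.0898), without overlap, and -0.77 in WT (adjusted p = 0.599), without overlap. None of the 3 passed by itself, and the authors' deposited table gives adjusted p-values of 0.407, 0.00779 and 0.399. The difference of the OE response from that of WT was 1.62 (SE 0.30, adjusted p = 0.0292, limma) and passed, and that of KO was 1.42 (SE 0.30, adjusted p = 0.0748) and did not.

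The OE difference of response was lost without any 1 of 9 of its 12 libraries (OE leaf 0 µM replicate 3, all 3 of OE leaf 200 µM, WT leaf 0 µM replicates 1 and 3, and all 3 of WT leaf 200 µM), at adjusted p-values of 0.0561 to 0.11 and changes of 1.45 to 1.695, and without the 3 leaf libraries low in long genes (1.76, adjusted p = 0.112). The KO difference of response passed without KO leaf 0 µM replicate 2 (1.67, adjusted p = 0.0264), whose NRT1.1 level of 36.4 FPKM is the lowest of its group. At 200 µM the lower level in OE passed under all 13 alternatives (adjusted p = 0.00136 to 0.012), and that in KO passed under 12 of 13, the exception being a fit of the KO and WT leaf libraries at 200 µM alone (adjusted p = 0.162).

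Other members differed between the lines and WT in leaf at 200 µM without passing. NRT1.7 had 70.1, 67.0 and 114.9 FPKM in KO leaves and 105.4, 88.5 and 82.1 FPKM in OE leaves, against 174.6, 122.6 and 118.7 FPKM in WT leaves. Both lines lay below WT without overlap, by 0.74 in KO (SE 0.24, adjusted p = 0.189, limma) and 0.57 in OE (SE 0.24, adjusted p = 0.517). NRT1.2 had 11.8, 32.7 and 29.7 FPKM in KO leaves and 25.6, 29.5 and 26.1 FPKM in OE leaves, against 46.3, 33.6 and 31.4 FPKM in WT leaves, and its lowest value was in KO leaf 200 µM replicate 1, the library with the most genes at 0. NRT1.5 lay above WT in KO leaves, at 19.85, 8.65 and 10.11 FPKM against 6.78, 2.56 and 6.01 FPKM, by 1.18 (SE 0.42, adjusted p = 0.223, limma). Its highest value, 19.85 FPKM, was in that same KO leaf 200 µM replicate 1.

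NRT2.1 had 4.94, 2.06 and 1.59 FPKM in KO leaves and 3.05, 2.36 and 0.81 FPKM in OE leaves at 200 µM, against 15.2, 22.5 and 2.35 FPKM in WT leaves, where 2 of the 3 libraries were high. The difference was -1.59 in KO (adjusted p = 0.247, limma) and -1.90 in OE (adjusted p = 0.242), and without WT leaf 200 µM replicate 3 it passed in both, at -2.43 (adjusted p = 0.0362) and -2.74 (adjusted p = 0.0203). The same WT libraries held other members that were otherwise near 0 in leaf, NRT2.5 at 1.36 FPKM in replicate 1 and NRT2.2 and NRT2.4 in replicate 2. NRT2.2 shares coding words with NRT2.1, whose highest leaf level was in replicate 2, and the part of shared reads was not tested.

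The 10 root markers, of which 3 passed the filter in leaf, summed to 46.0, 17.7 and 16.5 FPKM in KO leaves and to 13.5, 15.9 and 17.0 FPKM in OE leaves at 200 µM. In the 3 WT leaf libraries at 200 µM they summed to 22.1, 52.6 and 15.7 FPKM, with 1, 1 and 5 of the 10 at 0. Whether root RNA was present in leaf libraries, and whether it held part of their NRT2.1 signal, was not tested. In bulk tissue, fewer cells of a type and less RNA per cell cannot be told apart.

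NRT3.1 had 15.7 to 47.3 FPKM in leaf, its groups overlapped in every leaf comparison of lines or Pi levels, and none of its tests there passed. At 0 µM, NRT2.1 in leaf had 1.08, 1.00 and 3.22 FPKM in KO, 2.00, 2.31 and 2.37 in OE and 4.83, 1.00 and 1.61 in WT, with overlap throughout. NRT1.5 at 0 µM had 8.84 to 12.04 FPKM in KO leaves, 5.96 to 7.81 in OE leaves and 4.74 to 17.99 in WT leaves, where 1 library, WT leaf 0 µM replicate 3, stood above the other 2.

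**Figure D5:**
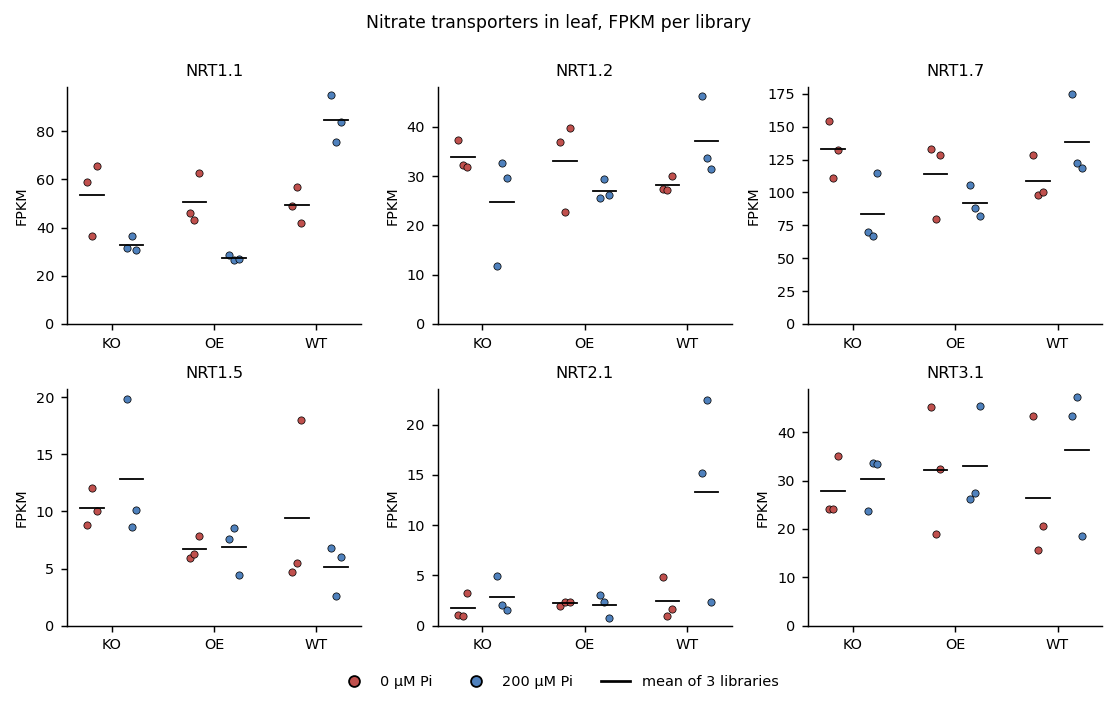
FPKM of the 6 members tested in leaf, in each leaf library, by genotype, with 0 µM Pi (red) left of 200 µM Pi (blue) and black bars at the means of 3 libraries. NRT1.1 at 200 µM lies between 26.7 and 36.6 FPKM in KO and OE and between 75.4 and 94.8 FPKM in WT.

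Of 6 members tested in leaf at 200 µM, 1 (NRT1.1) was called in KO against WT, beside 0.873% of all genes, and 1 (NRT1.1) in OE against WT, beside 0.382%. The KO background of 144 genes was 8 in a fit of the compared groups alone and 51 without WT leaf 200 µM replicate 2, and the OE background of 63 was 29 without OE leaf 200 µM replicate 3. The median difference of the 6 members was -0.70 in KO, against -0.10 over all genes, and -0.50 in OE, against -0.0018. At an unadjusted p under 0.05 there were 5 and 3 members. At 0 µM, 0 of 6 members were called in KO or OE against WT by limma, beside 0.0364% and 0.0303% of all genes, with 0 members at an unadjusted p under 0.05 in either and 0 by voom.

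For the Pi response of leaves, 0 of 6 members were called by limma in KO, OE and WT, beside 1.1%, 0.801% and 0.00606% of all genes, with 2, 1 and 2 members at an unadjusted p under 0.05 and 0 by voom. Averaged over genotypes 0 of 6 were called, beside 2.04% of all genes, with 0 at an unadjusted p under 0.05 and 0 by voom. The 337 genes behind that share became 2225 without the libraries low in long genes, and 189 to 938 with 1 library left out (without KO leaf 0 µM replicate 1 and without WT leaf 0 µM replicate 1). For the difference of a line's leaf response from that of WT, 0 of 6 members were called for KO beside 0.127% (3 members unadjusted, 0 by voom) and 1 of 6 for OE beside 0.352%. The KO background of 21 genes was 7 without KO leaf 0 µM replicate 1, 45 without WT leaf 0 µM replicate 2 and 0 in the compared groups alone. The OE background of 58 was 13 without OE leaf 0 µM replicate 3, 91 without WT leaf 0 µM replicate 2 and 9 without the libraries low in long genes.

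In root, 0 of 10 members were called in KO or OE against WT at either Pi level by limma or by voom. The background was 0.0522% (KO) and 0.0678% (OE) of all genes at 0 µM and 0.0313% and 0.0417% at 200 µM, and 3, 1, 2 and 2 members had an unadjusted p under 0.05. The nearest was NRT1.2, whose KO roots at 0 µM lay below those of WT without overlap (-0.55, SE 0.16, adjusted p = 0.214, limma), at 52.2 to 58.9 FPKM against 75.5 to 87.8 FPKM. NRT2.1 lay above WT without overlap in KO roots at 0 µM, at 1552 to 1753 against 968 to 1228 FPKM (0.61, SE 0.24, adjusted p = 0.322), and in OE roots, at 1268 to 1463 FPKM (0.37, adjusted p = 0.814).

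The background in root moved with single WT libraries. Without WT root 200 µM replicate 1, KO against WT at 200 µM had 922 calls over all genes in place of 6. OE against WT had 361 in place of 8, and the WT Pi response 1821 in place of 376. No member was gained or lost in these comparisons. That fit kept WT root 200 µM replicates 2 and 3, the root libraries lowest in long genes, at -1.13 and -0.46 on the log2 scale. Without replicate 2, the root library low in long genes, the counts were 5, 6 and 222 in the same order. The WT Pi response had 30 calls without WT root 0 µM replicate 3.

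The difference of a line's root response from that of WT was called for 0 of 10 members in KO and in OE, beside 0% of all genes in both by limma and by voom, with 1 and 0 members at an unadjusted p under 0.05. Without WT root 200 µM replicate 1 the differences of response had 153 calls over all genes for KO and 4 for OE. Between OE and KO directly, 0 of 6 members in leaf and 0 of 10 in root were called at either Pi level by limma or voom, beside 0.00606% of all genes in each leaf comparison and 0.00522% in each root comparison. In these 4 comparisons 1 member had an unadjusted p under 0.05, NRT1.2 in root at 200 µM, at 69.9, 65.4 and 67.3 FPKM in OE against 86.5, 110.3 and 80.1 FPKM in KO (-0.43, SE 0.16, adjusted p = 0.401). For NRT1.1 in leaf at 200 µM the OE libraries lay just below those of KO (-0.25, SE 0.21, adjusted p = 0.953, limma).

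A further 3 lists of nitrogen genes were read beside the members. Of 16 other nitrate transporters and channels, 12 were tested in each organ. In OE leaves SLAH3, a guard cell and root anion channel that carries nitrate, was 3.19 log2 units higher at 0 µM (SE 0.46, adjusted p = 0.00328, limma), at 28.0 to 55.4 FPKM against 2.00 to 5.74 FPKM at 200 µM. Its OE response also differed from that of WT (3.41, SE 0.65, adjusted p = 0.0332). Averaged over genotypes in leaf SLAH3 was the 1 of 12 that passed (1.48, adjusted p = 0.00508, limma), beside 2.04% of all genes.

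NRT1.12, which moves nitrate from xylem to phloem in leaf veins, had 8.16 to 11.86 FPKM in KO leaves at 200 µM against 21.2 to 31.6 FPKM in WT leaves, and was the 1 of 12 called there (-1.28, SE 0.25, adjusted p = 0.0195, limma), beside 0.873% of all genes, of which 126 of 144 were lower. In OE leaves at 200 µM it had 10.51 to 12.01 FPKM, also below WT, without a call.

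In the averaged root response 4 of the 12 were higher at 0 µM and 0 lower, beside the 8.67% of all genes. The 3 with the smallest adjusted p were NAXT1, a nitrate excretion transporter of the root (0.37, adjusted p = 0.0132, limma), NPF6.4 (AT3G21670, 0.66, adjusted p = 0.0144) and NPF6.2 (AT2G26690, 0.64, adjusted p = 0.0207). NAXT1 averaged 40.7 FPKM over the 9 libraries at 0 µM and 31.03 FPKM over the 9 at 200 µM.

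Of 11 genes of nitrate reduction and ammonium assimilation, all were tested in both organs. None passed in any comparison of Pi levels or genotypes by limma except 1 in the averaged root response, beside 8.67% of all genes there. This was GLN1;4, a cytosolic glutamine synthetase, which was higher at 0 µM (0.34, SE 0.09, adjusted p = 0.0233, limma). Its means were 37.3 FPKM at 0 µM and 29.1 FPKM at 200 µM.

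Of 22 genes of nitrate signalling, 21 were tested in root and 20 in leaf. In KO roots 3 of 21 fell at 0 µM and 0 rose, beside 3.53% of all genes, of which 433 were lower and 243 higher (574 and 186 under median-of-ratios scaling). BT1 and BT2, scaffold proteins that restrain nitrate uptake genes, fell by 1.66 (SE 0.26, adjusted p = 0.00122, limma) and by 1.36 (SE 0.26, adjusted p = 0.00743) on the log2 scale, and LBD37, a repressor of nitrogen-responsive genes including nitrate transporters, fell by 0.92 (SE 0.23, adjusted p = 0.0338). BT1 had 86.3 to 131.2 FPKM in KO roots at 0 µM against 254.8 to 379.0 FPKM at 200 µM, and BT2 119.9 to 178.0 FPKM against 289.6 to 407.0 FPKM.

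In the averaged root response BT1 (-0.93, adjusted p = 0.000661, limma), BT2 (-0.83, adjusted p = 0.00221) and HRS1, a repressor that links nitrate and Pi signals (-0.42, adjusted p = 0.0238), were lower at 0 µM and 1 gene, the peptide receptor CEPR2, was higher (0.62, adjusted p = 0.0231), beside the 8.67% of all genes. In the averaged leaf response 1 of 20 was higher, AT1G25550 (0.58, adjusted p = 0.038, limma), and 1 lower, LBD37 (-0.64, adjusted p = 0.0436), beside the 2.04% of all genes.

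Over the 18 root libraries, the level of NRT2.1 ran with those of NRT1.1 (Pearson r of log2(FPKM + 1) = 0.78), NRT1.5 (0.75) and NRT2.2 (0.73), and NRT2.5 with NRT2.4 (0.64) and NRT1.8 (0.60). NRT1.2 ran against NRT1.8 (-0.57) and NRT2.1 (-0.55). Over the 18 leaf libraries the highest values were between NRT1.2 and NRT1.7 (0.70) and NRT1.1 and NRT1.7 (0.68). These values are descriptions, since libraries share their group and FPKM share the library total. NRT2.1 and NRT2.2 also share coding words, and the part of shared reads in their r was not tested.

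Among all genes tested in root, the 5 nearest to NRT2.1 were AT1G30080 (0.90), PPC3 (0.88), AT5G36210 (0.86), BDG1 (0.85) and AT3G61820 (0.85), and the 5 nearest to NRT1.5 were AT1G30080 (0.88), AT3G66652 (0.87), AT5G57130 (0.86), AT1G67720 (0.86) and AT4G01390 (0.86). In leaf the 5 nearest to NRT1.7 were HB31 (0.85), MTO1 (0.85), HAG1 (0.85), FC1 (0.84) and AT2G24580 (0.82).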

How the data were processed

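The submitters' processing notes name Trimmomatic, HISAT2 2.2.1, DESeq2 and the TAIR10 build, without the role of each. No source used here gives the read counter, its strand setting or its treatment of shared reads. No label states a unit, and the deposited values of each library behave as FPKM per coding length: times length in kb they sum to 974165 to 1016893 per library, and low values are whole multiples of 1 read within 0.1 read, which gave the depth. The authors' deposited table also holds, for each Pi response, a ratio and an adjusted p-value, which entered no test.

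All 10 members, and lists of 49 pathway genes and 17 marker genes, were fixed by locus, and the members and lists were chosen with earlier results of these data known. Of 77 planned loci 1 was dropped because its annotation contradicted its name. All 27444 genes matched a TAIR10.1 name table, used for names, neighbours and coding sequence only. The text names all members, up to 3 risers and 3 fallers per list and comparison by smallest adjusted p, and the 5 genes most correlated with 3 members.

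Only genes averaging 1 FPKM or more over a fit's libraries entered limma 3.58.1 (R 4.3.3, with trend) on log2(FPKM + 1): 16489 genes in 18 leaf libraries, 19166 in 18 root libraries and, for root against leaf, 19327 in all 36. Members passed at an adjusted p under 0.05 (Benjamini-Hochberg within a comparison). There were 6 Pi responses, 8 comparisons of a line with WT, 4 of OE with KO, 4 differences of Pi response, 2 of WT root with leaf and, added later, 2 Pi responses averaged over genotypes. The fit was also run on simulated data with independent noise, where changes were set only in genes well above the filter. That run does not cover NRT1.8, NRT2.4 and NRT2.5 or the deviation of long genes. Alternatives were another pseudocount, no filter, median-of-ratios scaling, a replicate block, the compared groups alone and left-out libraries, and, added after seeing the data, the fit without the 4 libraries low in long genes and limma voom on recovered reads.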

Additional observations from a re-analysis of the deposited data

Results flagged for a closer look

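The Pi response of NRT1.1 in OE leaves differed from that in WT leaves by 1.62 on the log2(FPKM + 1) scale (SE 0.30, adjusted p = 0.0292, limma interaction term). The call was lost in 10 of 19 alternatives, with adjusted p-values of up to 0.112, and the difference of KO from WT was 1.42 (adjusted p = 0.0748). NRT1.1 had 45.9, 43.1 and 62.8 FPKM in OE leaves at 0 µM and 28.7, 26.7 and 26.7 FPKM in OE leaves at 200 µM, and 49.1, 56.6 and 42 FPKM in WT leaves at 0 µM and 94.8, 75.4 and 83.6 FPKM in WT leaves at 200 µM. All 3 OE libraries at 0 µM lay above those at 200 µM, and all 3 WT libraries at 0 µM lay below those at 200 µM.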

How the results depend on the processing

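The 30 results recomputed for single members were those that passed in the main fit or in any alternative, and the root Pi responses of NRT2.5. None of the 30 reversed under the alternatives run. That choice by outcome favours results that do not reverse, and it says nothing of the other results. The median over all genes did turn under median-of-ratios scaling in leaf at 200 µM, to 0.02 for KO against WT in place of -0.10 and to 0.03 for OE against WT in place of -0.0018. The calls among the 6 Pi responses numbered 1, with 0 in fits of the compared groups alone, 2 with voom and 0 to 3 with single libraries left out. Those of a line with WT numbered 2, with 1 in fits of the compared groups alone and 2 to 4 with single libraries left out. Those of the 4 differences of Pi response numbered 1, with 0 without the libraries low in long genes and 0 to 2 with single libraries left out. The 2 averaged Pi responses gave 2 calls, 1 with median-of-ratios scaling and 1 to 3 with single libraries left out. OE against KO gave 0 under every alternative, and WT root against leaf gave 16, or 15 to 18. The deviations of same-numbered libraries had a median correlation of -0.03 in leaf and -0.05 in root, with 10 and 7 of 45 pairs over 0.1. Within an organ, pairs with other numbers had medians of 0.02 in both, with 28 and 21 of 90 over 0.1. Same-numbered libraries of an organ were thus not more alike as a set. Single same-numbered leaf pairs reached 0.72, so a link between some groups is not excluded. Between root and leaf all 18 same-numbered pairs lay between 0.0068 and 0.375 (median 0.085), with 7 over 0.1. Pairs with other numbers had a median of -0.052, with 3 of 36 over 0.1. Root and leaf libraries of the same number may thus be linked, and the tests of root against leaf took them as independent. The replicate block has a term per number over all groups and does not model such pairs. With the replicate block the calls numbered 1 among Pi responses, 2 of a line with WT, 0 of OE with KO, 1 among differences of response, 16 of root with leaf and 2 among averaged responses, as without it. Low depth limits NRT1.8, NRT2.4 and NRT2.5, with at most 61 reads in a library.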
